A study of Mus musculus with 6 samples.

Results

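Interferon response genes were followed here in the ear skin of mice with and without a part of BP180. The group has 37 genes, each taken by an exact match of its symbol to the gene name of a non-control probe in the scanner files, out of 23677 genes tested. By the interferon best known to induce them, 26 were counted as type I type targets and 11 as interferon gamma type targets. All 37 were measured well above background on all 6 arrays, by 48 probes in all, of which 47 passed the filter on dim probes. None of the 37 passed the test between the groups, against 2.37% of all genes tested.

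BP180, also called collagen XVII, spans the membrane in the hemidesmosome, the structure that holds basal keratinocytes to the basement membrane. Its gene is Col17a1, and NC16A is an extracellular domain of it next to the membrane. Total RNA of fresh ear skin came from 3 mice labelled WT and NC16A sufficient (WT 1, WT 2 and WT 3) and 3 mice labelled KO and NC16A deficient (KO 1, KO 2 and KO 7). Age and sex were stated to be matched. Strain, age, sex and how the deletion was made are not given in the sources used here. Each mouse was read on 1 one-colour Agilent array.

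Type I interferons signal through Jak1 and Tyk2 to transcription factors that include Stat2 and Irf9, and act at the interferon-stimulated response element (ISRE) before antiviral genes such as the Ifit, Oas and Mx families. Interferon gamma, made mainly by T cells and NK cells, signals through Jak1 and Jak2, acts at the gamma-activated site (GAS) and raises Irf1, guanylate-binding proteins, the immunoproteasome and the chemokines Cxcl9, Cxcl10 and Cxcl11. The programmes overlap, and 7 of the 37 genes were counted here as answering both. In skin, keratinocytes answer both kinds of interferon.

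The promoters of 4 members are shown because they carry the elements named above and because their genes lay on opposite sides of 0 in the comparison that follows. Each is the 250 bases before the start site, written in the direction of the gene, from RefSeq on GRCm38.p6. Capitals mark the matches, to GAAA, 2 bases of any kind and GAAA on either strand for the ISRE in Isg15, Cxcl10 and Ifit3, and to TTC, 3 bases of any kind and GAA for the GAS in Irf1, a motif that reads the same on both strands. The stretches are chr4:156200819-156201068 on the minus strand for Isg15, chr5:92348890-92349139 on the minus strand for Cxcl10, chr11:53769764-53770013 on the plus strand for Irf1 and chr19:34583279-34583528 on the plus strand for Ifit3.
Isg15: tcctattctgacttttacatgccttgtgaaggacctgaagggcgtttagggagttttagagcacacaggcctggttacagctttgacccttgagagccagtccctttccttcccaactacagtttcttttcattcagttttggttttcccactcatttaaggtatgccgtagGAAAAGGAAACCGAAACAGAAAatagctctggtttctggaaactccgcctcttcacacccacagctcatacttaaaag
Cxcl10: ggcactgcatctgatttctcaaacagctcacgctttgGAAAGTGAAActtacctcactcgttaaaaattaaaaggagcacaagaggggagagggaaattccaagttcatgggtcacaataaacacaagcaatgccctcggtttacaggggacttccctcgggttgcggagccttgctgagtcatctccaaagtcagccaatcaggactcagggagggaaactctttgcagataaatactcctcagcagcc
Irf1: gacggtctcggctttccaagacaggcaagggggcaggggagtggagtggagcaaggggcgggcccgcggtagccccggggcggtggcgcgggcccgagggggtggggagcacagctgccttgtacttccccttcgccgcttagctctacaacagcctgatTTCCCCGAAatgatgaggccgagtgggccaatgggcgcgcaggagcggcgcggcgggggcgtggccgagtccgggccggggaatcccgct
Ifit3: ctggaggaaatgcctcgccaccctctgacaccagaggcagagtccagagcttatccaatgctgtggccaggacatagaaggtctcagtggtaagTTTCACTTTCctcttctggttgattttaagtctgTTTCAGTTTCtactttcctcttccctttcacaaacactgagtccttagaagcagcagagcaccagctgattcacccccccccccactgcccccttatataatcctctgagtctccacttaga

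In Isg15, which encodes a ubiquitin-like antiviral protein, 3 overlapping ISRE matches began 78, 72 and 66 bases before the start site. Ifit3 held 2 on the reverse strand, 156 and 122 bases before it, and Cxcl10 held 1 at 213 bases. The GAS match of Irf1 began 90 bases before its start. RefSeq windows from 250 bases before to 50 bases after the start were found for 27 of the 37 genes, in 31 windows. An ISRE match lay in a window of 14 of those 27 genes (51.9%), and in 3.99% of all 27025 genes with a window. The share was 10 of 18 among type I type targets and 4 of 9 among gamma type targets. A GAS match lay in 6 of the 27 (22.2%), against 9.55% of all genes. Its share was the same in the classes, 4 of 18 type I type and 2 of 9 gamma type targets. Of 22 ISRE matches 1 overlapped a GAS match, in Bst2. The 14 genes with an ISRE match had a median difference between KO and WT of 0.15 on the log2 scale, with 9 higher and 5 lower in KO, and the 13 without had a median of 0.02, with 7 higher and 6 lower. A match describes the letters in a window and not a bound site.

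Values below are log2 of the array signal relative to the array's own 75th percentile, so they compare mice for 1 probe and not levels between genes. Differences are KO minus WT, with the standard error (SE) of the limma fit over 3 mice a group, and adjusted p is that fit's p after Benjamini-Hochberg adjustment over all 23677 genes. The threshold for a call was an adjusted p under 0.05. Spots well above background made up 72.6% to 78.2% of each array, and no spot was saturated. The number of mice limits the precision, with SEs of the members from 0.12 to 0.51. The Col17a1 probe read 4.41, 4.39 and 4.47 in the WT mice and 4.48, 4.31 and 4.10 in the KO mice, a difference of -0.13 (SE 0.14, adjusted p = 0.58). Where that probe lies relative to the deleted sequence was not known, so it does not check the labels. The keratinocyte markers Krt5, Krt14, Krt1, Krt10, Lor and Dsg1a were well above background in every mouse. The arrays lay on 2 slides, with the 3 WT mice and KO 1 on slide 1 and KO 2 and KO 7 on slide 2. Differences within slide 1 set KO 1 alone against the WT mice. They are given for Cxcl9, Cxcl10, Irf7 and Ifit3, and for every other gene named with a difference where they turned it or moved it by over 1.5 times, except Col17a1.

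The 2 classes of interferon target lay differently in the KO skin. Of the 11 gamma type targets, 9 were higher in KO on average and 2 lower, with a median difference of 0.44. Of the 26 type I type targets, 14 were higher and 12 lower, with a median of 0.02. Over all genes tested the median was 0.05, with quartiles of -0.23 and 0.34, and 55.1% of genes were higher and 44.9% lower in KO. At an adjusted p under 0.05, 0 of 37 were higher and 0 lower, where 1.98% and 0.389% of all genes were. Unadjusted p was under 0.05 for 9 of the 37, against 26.6% of all genes. At an adjusted p under 0.10, 5 of 37 passed, against 8.62% of all genes, with Cxcl10, Cxcl9 and Oas2 higher and Irf7 and Ifit3 lower. The KO mice lay wholly above the WT mice for 5 of the 11 gamma type and 4 of the 26 type I type targets, against 21.4% of all genes. They lay wholly below for 1 and 4, against 14% of all genes. Together that is 14 of 37 on 1 side, against 35.4%.

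**Figure D1:**
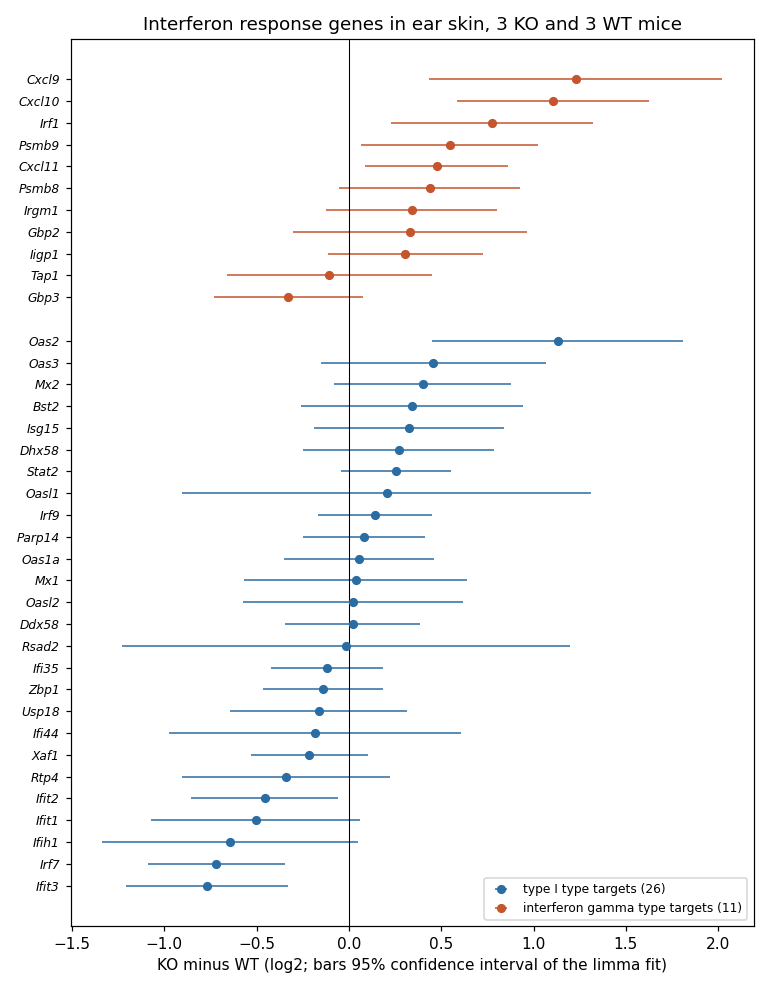
KO minus WT difference of each of the 37 genes on the log2 scale (points) with the 95% confidence interval of the limma fit (bars), 3 mice a group, with interferon gamma type targets above and type I type targets below. The gamma type genes run from Gbp3 at -0.33 to Cxcl9 at 1.23 with 9 of 11 to the right of 0, and the type I type genes run from Ifit3 at -0.77 to Oas2 at 1.13 on both sides of it.

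Each mouse's mean over a class, relative to the WT mean of each gene, shows how far single mice carried these patterns. For the gamma type targets the mean was -0.20, 0.11 and 0.09 in WT 1, WT 2 and WT 3, and 0.55, 0.40 and 0.44 in KO 1, KO 2 and KO 7. Every KO mouse was above every WT mouse. The mean over all genes tested also lay apart, at smaller size. It was -0.03, 0.00 and 0.03 in the WT mice and 0.08, 0.10 and 0.17 in the KO mice. For the type I type targets the mean was -0.05, 0.15 and -0.09 in the WT mice and -0.07, -0.18 and 0.19 in the KO mice. Here the groups overlapped, with KO 7 above and KO 2 below all WT mice. The gap between the classes, gamma minus type I, was -0.15, -0.04 and 0.19 in the WT mice and 0.62, 0.58 and 0.25 in the KO mice, again without overlap. These are descriptions of chosen lists, with no test. The 7 genes counted as answering both interferon types were Irf9, Stat2, Parp14, Cxcl10, Psmb8, Psmb9 and Tap1. Without them the medians were 0.34 over 7 gamma type and -0.02 over 23 type I type targets. The genes left were not shown to answer 1 type only, so these medians do not separate the programmes. Within slide 1 they were 0.47 for the gamma type, with 10 of 11 genes higher, and -0.08 for the type I type, with 10 of 26 higher, where the all-gene median was 0.00.

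**Figure D2:**
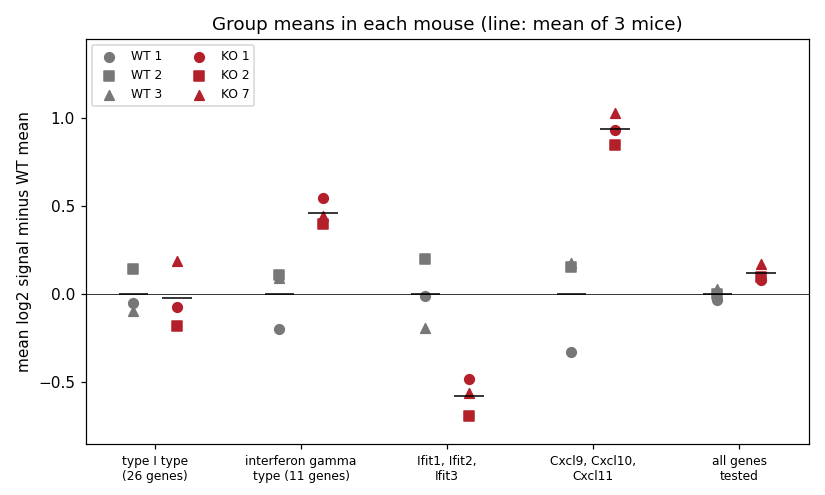
Mean log2 signal minus the WT mean in each mouse for the 2 classes, the Ifit genes, the Cxcl chemokines and all genes tested (WT grey, KO red, the symbol gives the mouse, the line the mean of 3 mice). For the gamma type targets the KO points sit between 0.40 and 0.55, and for the Ifit genes between -0.69 and -0.48. Both are clear of the WT points, while the KO points of the type I type targets spread from -0.18 to 0.19 among them. Over all genes the KO points lie between 0.08 and 0.17, also above the WT points.

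The chemokines Cxcl9, Cxcl10 and Cxcl11, which draw T cells and NK cells through the receptor Cxcr3, lie together on chromosome 5, and all 3 were higher in every KO mouse than in any WT mouse. Cxcl10 read -2.02, -1.88 and -1.67 in WT 1, WT 2 and WT 3, and -0.76, -1.13 and -0.36 in KO 1, KO 2 and KO 7. The group means were apart by more than either group's standard deviation, 0.17 in WT and 0.38 in KO. The difference was 1.11 (SE 0.22), a 2.15-fold higher signal, with an adjusted p of 0.056, the smallest of the 37. It was 1.10 within slide 1, and stayed between 0.91 and 1.29 when any mouse was left out. Cxcl9 read -4.32, -3.155 and -3.33 in WT and -2.14, -2.25 and -2.72 in KO. WT 1 was far below the other WT mice, and all KO mice were above them. The difference was 1.23 (SE 0.33, adjusted p = 0.099), or 2.34-fold, and 1.46 within slide 1. The other Cxcl9 probe gave 1.14.

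Cxcl11 read 5.52, 5.66 and 5.70 in WT and 5.86, 6.09 and 6.35 in KO, a difference of 0.48 (SE 0.16, adjusted p = 0.14), and 0.24 within slide 1. Again no KO mouse reached down to a WT mouse. Its probes call for caution, as their sequences show, all 5' to 3' with positions on mm9 and on the minus strand except Ifit3. Capitals mark stretches of at least 16 bases that also occur, on either strand, in a probe for another gene. The probes lie at chr5:92775781-92775840 for Cxcl10, chr19:34663105-34663164 for Ifit3, chr5:92788567-92788626 for the Cxcl11 probe used and chr5:92788640-92788699 for the other.
Cxcl10: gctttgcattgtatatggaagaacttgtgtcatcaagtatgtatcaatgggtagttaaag
Ifit3: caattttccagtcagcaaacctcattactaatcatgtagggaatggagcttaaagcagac
Cxcl11 used: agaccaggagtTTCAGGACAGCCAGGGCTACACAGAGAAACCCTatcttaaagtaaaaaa
Cxcl11 other: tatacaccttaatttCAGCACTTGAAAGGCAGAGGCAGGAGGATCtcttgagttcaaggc

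The Cxcl11 probe used shares such a stretch with 19 probes for other genes and with 55 RefSeq promoter windows, and the other Cxcl11 probe with 2 probes and 10 windows. The other probe gave a difference of 0.76 (adjusted p = 0.13). Of the 47 kept probes for the 37 genes, 41 share none with another gene's probe, those of Cxcl10, Cxcl9 and Ifit3 among them. Whether transcripts other than Cxcl11 add to its signal was not tested. Without Cxcl11, a comparison added after its probes were seen, the gamma type median over the other 10 genes was 0.39. Cxcr3 itself differed by 0.12 (SE 0.23, adjusted p = 0.75), with overlapping groups, and by -0.38 within slide 1.

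**Figure D3:**
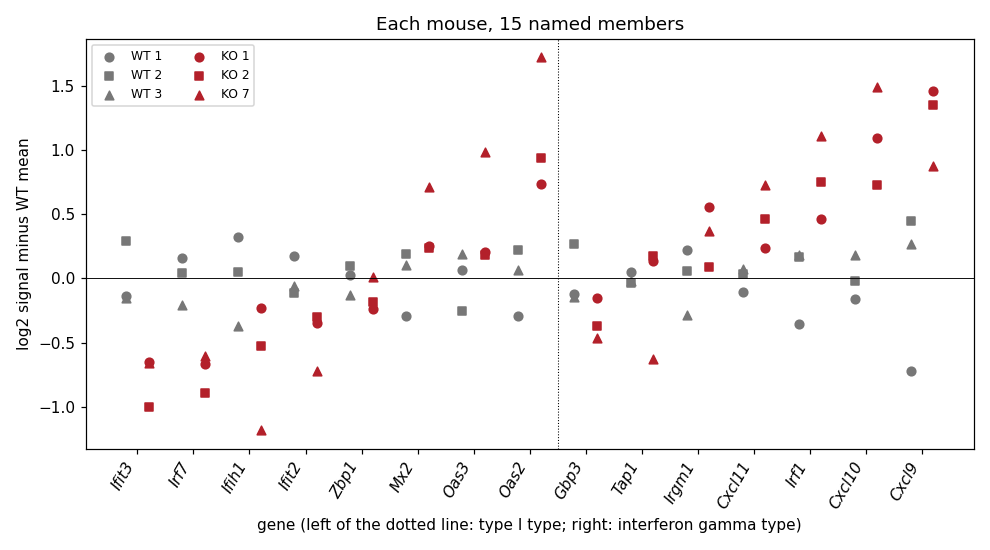
Log2 signal minus the WT mean of each of 15 genes in each mouse (WT grey, KO red, the symbol gives the mouse), type I type targets left of the dotted line and gamma type targets right of it. The KO points of Ifit3 and Irf7 lie below all WT points and those of Oas2, Irf1, Cxcl10 and Cxcl9 above, while Ifih1, Zbp1, Oas3, Irgm1 and Tap1 overlap.

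Irf1, a transcription factor that acts on many gamma targets, read 1.19, 1.71 and 1.72 in WT and 2.003, 2.29 and 2.65 in KO. All KO mice were above all WT mice. The difference was 0.77 (SE 0.23, adjusted p = 0.11), or 1.71-fold, and 0.47 within slide 1. Among the antigen-processing genes, the immunoproteasome subunits Psmb8 and Psmb9 differed by 0.44 (SE 0.21, adjusted p = 0.22) and 0.54 (SE 0.20, adjusted p = 0.16), and for Psmb9 the groups did not overlap. Tap1, which encodes a subunit of the peptide transporter and lies next to Psmb9 on chromosome 17 with 275 bases of promoter window in common, read -1.52, -1.61 and -1.59 in WT and -1.44, -1.40 and -2.20 in KO. KO 1 and KO 2 were above all WT mice and KO 7 was far below them. The Tap1 difference was -0.11 (SE 0.23, adjusted p = 0.78), and it was 0.16 without KO 7 and 0.13 within slide 1. Of the constitutive proteasome subunits that the immunoproteasome replaces, Psmb5 differed by 0.35, Psmb6 by 0.27 and Psmb7 by -0.30, none past the test, and by 0.13, 0.09 and -0.13 within slide 1.

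The 4 interferon-inducible GTPases, which act against intracellular pathogens, lay on both sides of 0. Gbp3, a guanylate-binding protein, read -0.20, 0.19 and -0.23 in WT and -0.23, -0.45 and -0.54 in KO. KO 1 was barely below the lowest WT mouse, and the difference was -0.33 (SE 0.17, adjusted p = 0.25), and -0.15 within slide 1. Gbp2 and Iigp1 differed by 0.33 and 0.31 with overlapping groups, and by 0.78 and 0.58 within slide 1, since KO 1 was the highest KO mouse in both. The other Iigp1 probe gave 0.03. Irgm1, an immunity-related GTPase, read -0.15, -0.31 and -0.65 in WT and 0.19, -0.28 and 0.00 in KO, a difference of 0.34 (SE 0.19, adjusted p = 0.29), with overlap, and 0.56 within slide 1. Its other probe gave -0.31, so its direction depends on the probe.

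Among the type I type targets the Ifit genes, which encode proteins that bind foreign RNA and lie side by side on chromosome 19, were all lower in KO. Ifit3 read -0.48, -0.05 and -0.49 in WT and -0.99, -1.34 and -0.999 in KO. Every KO mouse was below every WT mouse. The difference was -0.77 (SE 0.18, adjusted p = 0.080), a 1.70-fold higher signal in WT, and -0.65 within slide 1. Ifit2 read -3.07, -3.36 and -3.31 in WT and -3.60, -3.55 and -3.97 in KO, a difference of -0.46 (SE 0.17, adjusted p = 0.16). Its groups did not overlap either. Ifit1 differed by -0.51 (SE 0.24, adjusted p = 0.22), with overlap. The mean over the 3 genes was -0.48, -0.69 and -0.56 in the KO mice and -0.19 to 0.20 in the WT mice.

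Irf7, the transcription factor that amplifies type I interferon production, read -2.81, -2.93 and -3.18 in WT and -3.64, -3.87 and -3.58 in KO. It lay lower in all KO mice, by -0.72 (SE 0.16, adjusted p = 0.067), or 1.65-fold, and by -0.67 within slide 1. Stat2 and Irf9, which carry the signal of the type I receptor to the nucleus, differed by 0.25 with no overlap between the groups and by 0.14 with overlap, which for Irf9 was -0.01 within slide 1. Usp18, which damps signalling from the type I receptor, differed by -0.16 with overlap, and by -0.06 within slide 1.

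The Oas genes, whose enzymes make the second messenger that activates RNase L, include Oas1a, Oas2 and Oas3, which lie in 1 cluster on chromosome 5. Oas2 read -1.995, -1.48 and -1.63 in WT and -0.97, -0.77 and 0.02 in KO. All KO mice were above all WT mice, KO 7 most of all. The difference was 1.13 (SE 0.28, adjusted p = 0.088), or 2.19-fold, and 0.73 within slide 1. Without KO 1 its adjusted p was 0.062, the lowest of any of the 37 genes with a mouse left out. Oas3 read -5.55, -5.87 and -5.43 in WT and -5.41, -5.44 and -4.64 in KO, so that KO 7 alone stood clear of the WT mice, and the difference was 0.46 (SE 0.25, adjusted p = 0.28), and 0.21 within slide 1. Oas1a differed by 0.05 (SE 0.17, adjusted p = 0.85), and by -0.07 within slide 1, and its other probe gave 0.27. Oasl2, a relative of these genes, differed by 0.02 with overlap, and by -0.15 within slide 1. Whether the Oas genes differ from each other in response was not tested.

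Of the other antiviral effectors, Mx2, a dynamin-like GTPase, read -4.42, -3.95 and -4.03 in WT and -3.88, -3.90 and -3.42 in KO. The KO mice were all above the WT mice, KO 1 and KO 2 by little, and the difference was 0.40 (SE 0.20, adjusted p = 0.24), and 0.25 within slide 1. Mx1 differed by 0.04, Bst2 by 0.34 and Rtp4 by -0.34, each with overlap, and within slide 1 Mx1 differed by 0.23 and Bst2 by 0.07. Isg15 differed by 0.33 (SE 0.22), with no overlap, and by 0.11 within slide 1. Its other probe gave 0.05 with overlapping groups, so that the lack of overlap depends on the probe. Rsad2 and Oasl1, picked out after their values were seen, had the widest spread among KO mice of the 37 genes. Rsad2, the antiviral enzyme viperin, read -2.98, -2.63 and -2.83 in WT and -3.01, -3.82 and -1.66 in KO. KO 1 and KO 2 were below and KO 7 above all WT mice, and the difference was -0.02 with an SE of 0.51, and -0.20 within slide 1. Oasl1 read -1.58, -1.63 and -1.98 in WT and -1.83, -2.31 and -0.43 in KO, with the same order of KO mice, a difference of 0.20 that was -0.10 within slide 1. KO 7 was the highest KO mouse in 15 of the 26 type I type and 3 of the 11 gamma type targets.

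The sensors of foreign nucleic acid lay on both sides of 0. Ifih1, the RNA sensor Mda5, read 0.22, -0.05 and -0.48 in WT and -0.34, -0.63 and -1.28 in KO. KO 1 lay within the WT range and KO 7 far below it, and the difference was -0.65 (SE 0.29, adjusted p = 0.21), with -1.06 by its other probe and -0.23 within slide 1. Ddx58, the RNA sensor RIG-I, differed by 0.02 and Dhx58, their relative, by 0.27, which within slide 1 were -0.08 and 0.02. Zbp1, a sensor of left-handed nucleic acid that triggers cell death, read -1.95, -1.88 and -2.10 in WT and -2.22, -2.16 and -1.97 in KO. The groups overlapped, the difference was -0.14 (SE 0.14, adjusted p = 0.52), or -0.24 within slide 1, and its other probe gave 0.72, so no direction can be given. The remaining genes Ifi44, Ifi35, Xaf1 and Parp14 lay between -0.21 and 0.08, and within slide 1 between -0.17 and 0.16.

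**Figure D4:**
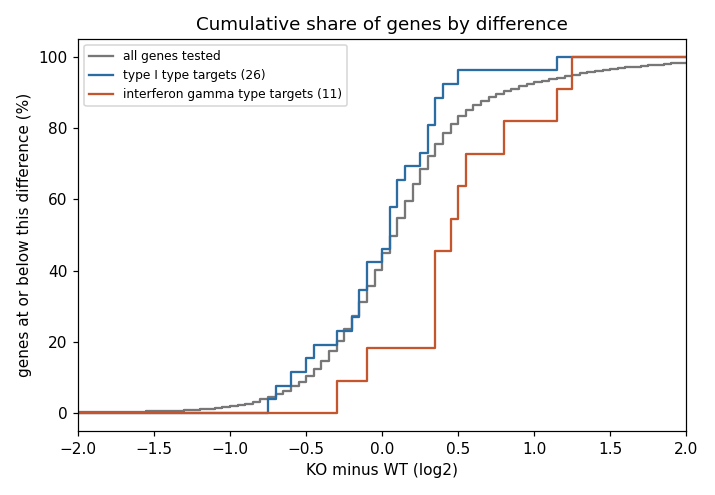
Cumulative share of genes (%) at or below each KO minus WT difference (log2, in steps of 0.05; differences beyond 2 in either direction are not drawn) for all 23677 genes, the 26 type I type and the 11 gamma type targets. The type I type curve runs close to that of all genes below 0 and above it at positive differences, and the gamma type curve lies to the right, with its median of 0.44 above the differences of 80.4% of all genes.

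The type I type median of 0.02 lay above 46.8% of all genes, and the gamma type median above 80.4%. The 2 classes had the same order in further targets that are not among the 37. These were read on the same arrays, with the same split over slides, and were listed with earlier results of these data known. They are therefore not an independent check of that order. Of 21 other gamma type targets, none passed the test, 17 were higher and 4 lower, and their median difference was 0.41, which was 0.25 within slide 1. Gbp4 (0.96, SE 0.20, adjusted p = 0.062), Gbp5 (0.62, SE 0.15, adjusted p = 0.083) and Ifi47 (0.57, SE 0.17, adjusted p = 0.11), all interferon-inducible GTPases, had the smallest p. Of 17 other type I type targets, none passed, 8 were higher and 9 lower, with a median of -0.12, and -0.14 within slide 1. Ifit3b, a close copy of Ifit3 whose probe may not tell them apart, differed by -0.85 (adjusted p = 0.084), Phf11d by -0.57 and Slfn5 by 0.76, the last by 0.32 within slide 1.

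The interferons themselves gave weak signals. Of 21 listed, 16 were on the array and 12 were tested; 11 of the 12 were higher in KO and none passed. Of the 10 that were well above background in every mouse, 9 were higher. Ifng, the gene of interferon gamma, read -7.41, -6.34 and -6.10 in WT and -5.86, -5.82 and -5.51 in KO, with all KO mice above the WT mice. The difference was 0.89 (SE 0.34, adjusted p = 0.17), and 0.76 within slide 1. Ifnk, the interferon kappa of keratinocytes, was well above background in 1 of 3 WT and 3 of 3 KO mice, as was Ifna7. Both passed the filter through the KO mice, so no size or test is given for them. The Ifna genes are near-identical copies whose probes may not tell them apart. Ifna11 read -7.81, -6.83 and -6.90 in WT and -5.44, -5.83 and -4.19 in KO, a difference of 2.03 (SE 0.47, adjusted p = 0.076). The lowest signal well above background ranged from -8.32 in WT 1 to -7.05 in KO 1. The WT 1 reading of Ifna11 thus lay near background, and the size of its difference is uncertain. Ifna12 differed by 0.89, and by 0.54 within slide 1. Ifna1, Ifna2, Ifna5, Ifna13, Ifna14 and Ifnab lay between 0.06 and 0.30, and within slide 1 between -0.09 and 0.41. Ifnl3 differed by -0.29, and by 0.09 within slide 1. Ifnb1, Ifne and Ifna4 were not well above background in any mouse, and Ifna16 was so in 1 WT mouse.

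None of the 6 receptor genes, 15 signalling genes or 7 negative regulators tested passed. Among receptors Ifngr1, a chain of the interferon gamma receptor, differed by 0.44 (adjusted p = 0.15) and Ifnar1 by 0.27 (adjusted p = 0.24), both with no overlap. Ifngr2 differed by 0.42 with overlap. Within slide 1 Ifnar1 and Ifngr2 differed by 0.14 and 0.08. Of the signalling genes 7 were higher and 8 lower, with Tlr3, a sensor of double-stranded RNA, at -0.51 (SE 0.12, adjusted p = 0.077), Jak1 at -0.39 and Mavs, the adaptor of the RNA sensors, at -0.31. For each of these 3 the KO mice lay wholly below the WT mice. Of the negative regulators 6 were higher and 1 lower, with Socs3 at 0.68 (SE 0.15, adjusted p = 0.070), Samhd1 at 0.66 and Socs1 at 0.58, the latter pair at 0.31 and 0.13 within slide 1.

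Bulk skin cannot tell apart more cells of a type from more RNA per cell, so marker genes of other cells were read beside these results. None of 9 T cell markers passed the test, with 8 higher and 1 lower. Their summed signal, as a percent of the array's 75th percentile, was 527 to 597 in WT and 563 to 824 in KO, and KO 1 lay within the WT range. Their median difference was 0.37, and 0.04 within slide 1. Of 5 NK cell markers tested 2 were higher and 3 lower, with sums of 29.7 to 31.6 in WT and 29.6 to 39.8 in KO, and the defining marker Ncr1 was not well above background in any mouse. Of 6 plasmacytoid dendritic cell markers 5 were higher, with sums of 8973 to 10737 in WT and 12097 to 16314 in KO. From 60.02% to 67.6% of that sum came from 1 probe, that of Ly6d, which keratinocytes also express. None passed the test. Siglech, with the smallest p of the list, read 4.27, 4.54 and 4.47 in WT and 4.88, 4.96 and 5.65 in KO. It differed by 0.74 (SE 0.23, adjusted p = 0.12), and by 0.45 within slide 1. Its KO mice lay wholly above the WT mice. Whether transcripts other than Siglech add to the signal of this probe was not tested. For Ccr9, at -0.37, the KO mice lay wholly below the WT mice. The list's median was 0.23, and -0.10 within slide 1. Of 6 macrophage markers 1 was higher and 5 lower, and none passed the test. Their sums overlapped, and 65.1% to 68.8% of them came from the Csf1r probe. Cd68 differed by -1.05 (SE 0.29, adjusted p = 0.104) and Cd163 by -1.002 (SE 0.35, adjusted p = 0.145). For both, the KO mice lay wholly below the WT mice. The marker that was higher, Cd14, differed by 1.08 with overlap, and by 0.64 within slide 1. The remaining markers also overlapped.

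Of 7 neutrophil markers tested 1 passed, Cxcr2, with a difference of 2.04 (SE 0.26, adjusted p = 0.015). That call was lost with the replicate block (adjusted p = 0.15) and without WT 2 (0.076), WT 3 (0.063) or KO 2 (0.064). It was also lost with slide as a fixed block, which sets KO 1 alone against the WT mice. With slide as a random block it was kept (adjusted p = 0.017). In all 6 of the 7 were higher, with sums of 882 to 942 in WT and 1228 to 2248 in KO, of which 82.8% to 88.4% came from the Csf3r probe. The exception was Ly6g, a defining neutrophil marker, at -0.35 with all KO mice below all WT mice. Keratinocyte markers summed to 32296 to 38608 in WT and 44333 to 56124 in KO, and 5 of 6 were higher. All 6 adipocyte markers and all 6 skeletal muscle markers were lower on average, with no call. Of 6 endothelial markers 3 were higher and 3 lower. The part of these cell types in the differences of the interferon genes was not tested.

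**Figure D5:**
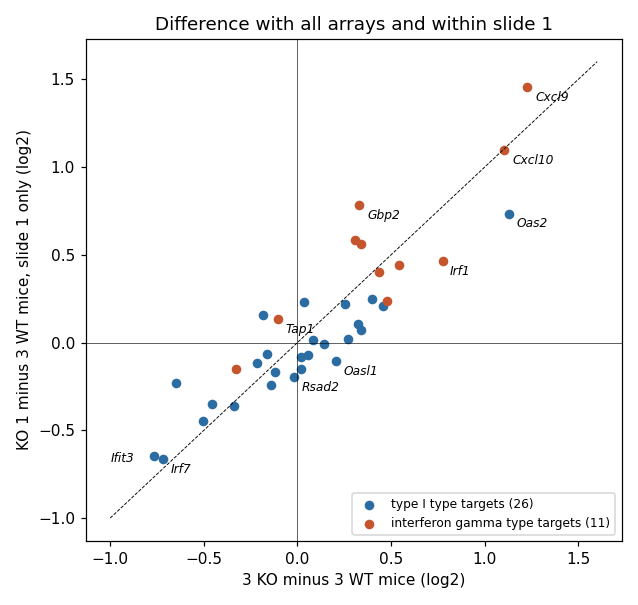
Difference of each of the 37 genes over all mice (x axis, log2) against the difference between KO 1 and the 3 WT mice on slide 1 (y axis, log2), with the dashed line where both are equal. The values share the WT mice and KO 1, Cxcl9 and Cxcl10 lie near the line at 1.46 and 1.10 within slide 1, and Oas2 and Irf1 lie below it at 0.73 and 0.47.

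Slide as a fixed block leaves KO 1 alone against the WT mice, so only the size of its differences is read. With slide as a random block no member passed, and the lowest adjusted p was 0.064, for Cxcl10. The slide and the KO state cannot be told apart for KO 2 and KO 7. Of the 37 genes, 30 kept the sign of their difference within slide 1, and Oas1a, Oasl1, Oasl2, Irf9, Ddx58, Ifi44 and Tap1, 7 in all, did not.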

How the data were processed

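Total RNA from the ear skin of 3 WT and 3 KO mice was read on 1 array each, labelled with Cy3. RNA was extracted with Qiagen RNeasy kits, per the labels' protocols. The deposited scanner files hold the processed signal of each spot as an intensity from Agilent Feature Extraction 10.7.3.1 (protocol GE1_107_Sep09, design 026655, probe positions on mm9), per the file headers. The values of the deposited series matrix are equal to it for all 43340 features. Nothing in the headers normalizes between arrays.

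Outlier spots were left out and spots of a probe averaged. Values are log2 of the intensity minus the array's 75th percentile, which lay between 5276 and 6656 in WT and between 3806 and 4416 in KO mice. A probe had to be well above background on 3 or more of the 6 arrays, which left 29601 probes, and the brightest of them stood for each of 23677 genes. Genes were named through a RefSeq table (GRCm38.p6). The groups were tested in limma 3.58.1 (R 4.3.3, lmFit and eBayes, two-sided, no covariate, 4 residual and 2.64 prior degrees of freedom). The p-values measure the spread between these 6 mice. The test was also run on simulated data with independent noise and no slide effect. That check does not cover the split of the KO mice over slides. Other steps used Python 3.11.15 with pandas 2.3.3 and matplotlib 3.10.9.

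A member was given in every mouse if it passed, was among the 4 with the smallest p or the 3 largest differences in either direction in its class, or had probes of opposite sign. From other lists, up to 3 genes with the smallest p and all interferons were named. The members and lists were chosen with earlier results of these data known.

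Alternatives covered background correction, scaling, filter, probe choice, input values, replicate and slide blocks, thresholds and each mouse left out. WT and KO mice share the numbers 1 and 2. The labels name no pairing, and the deviations of same-numbered mice from their group means correlated at 0.08 and 0.05, so the numbers were not taken as pairs.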

Additional observations from a re-analysis of the deposited data

How the results depend on the processing

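No member passed in the main comparison, and few did elsewhere. With normexp background 1 member passed higher, Cxcl10 (1.02, adjusted p = 0.043), and 1 lower, Ifit3 (-0.78, adjusted p = 0.044). With the filter on all 6 arrays, which tests fewer genes, 1 passed higher, Cxcl10 (1.11, adjusted p = 0.045), and with array median scaling 1 passed lower, Irf7 (-0.86, adjusted p = 0.049). At an adjusted p under 0.10, 3 passed higher and 2 lower. With any mouse left out the counts were 0 to 0 in each direction.

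Array median scaling moved the all-gene median difference from 0.05 to -0.08. It set the gamma type median to 0.30 and the type I type median to -0.12, with 9 type I type targets higher and 17 lower. Relative to the all-gene median the gamma type median was 0.38 in the main comparison, which a change of array scale cannot alter, and 0.33 with normexp background. Quantile normalization gave 0.33 for the gamma type. Leaving out each mouse gave 0.35 to 0.51 for the gamma type and -0.06 to 0.12 for the type I type. The replicate block gave -0.16 for the type I type and 0.39 for the gamma type.

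Tap1 turned to 0.15 with the replicate block, 0.13 with slide as a fixed block and 0.16 without KO 7, and leaving out each mouse spanned -0.25 to 0.16. Zbp1 turned to 0.29 as the mean of its probes and 0.72 by its other probe, and Irgm1 to -0.31 by its other probe. Of 260 values of the 15 genes under alternatives, 250 kept their direction and side of the threshold, 4 passed it (named above) and 6 changed sign. Many could not change direction. The series matrix values equal the input, and the filter settings left each of these differences as it was. So did the mean of probes for genes with 1 kept probe. No member passed in the main comparison, so the 250 do not measure how robust the differences are.

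Over all genes, 468 were higher and 92 lower in KO. The counts higher and lower were 860 with normexp background (higher only), 269 and 27 without a filter, 158 and 10 with slide as a fixed block, 1569 and 471 at an adjusted p under 0.10, and 183 to 717 and 19 to 254 with a mouse left out. The replicate block, with fewer residual degrees of freedom, gave 0 and 0. Array median scaling gave 149 lower. The share of calls that were higher was 83.6%, and 72.3% with array median scaling, 73.7% with quantile normalization and 94.0% with slide as a fixed block. Apart from the shift in scaling, the cause of these changes was not tested. The 3 mice a group and the SEs of the members, 0.12 to 0.51, limit what could be called, and dim probes lie near background.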
